A study of Mus musculus with 18 samples.

Results

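The genes described here are those through which vasopressin acts on the cells of the kidney collecting duct: the V2 receptor, the stimulatory G protein, the adenylyl cyclases, protein kinase A (PKA) with its regulatory subunits, inhibitors and anchors, the cyclic AMP phosphodiesterases, and the genes that turn the receptor's signal off. They were chosen by symbol, and 46 symbols were listed and all 46 were found among the 24111 rows of the count table. RNA was sequenced from mpkCCD, an immortal mouse collecting duct line that keeps traits of principal cells, here the clone named mpkCCD11 in the labels. The cells were grown to confluence on permeable supports in medium with low serum, insulin, transferrin, selenium, dexamethasone, thyroid hormone (triiodothyronine) and epidermal growth factor. Both groups then spent 24 h without serum, followed by a further 24 h in serum-free medium, either without an added agonist (control, 9 libraries) or with 0.1 nM dDAVP (9 libraries). dDAVP, or desmopressin, is a vasopressin analogue that acts on the V2 receptor.

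In the principal cell the V2 receptor, on binding vasopressin, activates the G protein subunit Gs alpha, which in turn activates membrane adenylyl cyclases that make cyclic AMP. Cyclic AMP releases the catalytic subunits of PKA from their regulatory subunits, and PKA phosphorylates targets that include the water channel aquaporin-2 and the transcription factor CREB, while phosphodiesterases degrade the messenger. Anchoring proteins (AKAPs) hold PKA at particular places in the cell, PKI proteins inhibit its free catalytic subunits, and receptor kinases, arrestins and RGS proteins dampen signalling at the receptor and the G protein.

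Libraries of both groups carry the numbers 1 to 9 in the labels, and the 3 sets of numbers 1 to 3, 4 to 6 and 7 to 9 were described separately as well as together. Counted reads per library ranged from 22.2 to 105.9 M. A floor of 3 counts, about the upper 95% limit of counting error for an observed count of 0, came to between 0.0143 and 0.359 normalised CPM. Normalised CPM are counts scaled to a common library size, as CPM, by the TMM method. Nothing in the labels says that libraries of a group came from separate cultures, so p-values measure the spread between these libraries, and in bulk RNA fewer cells of a type cannot be told apart from less RNA per cell. Aqp2, the gene for aquaporin-2, was at 20.5, 23.2 and 27.9 CPM in control 1 to 3 against 1050, 2637 and 2424 CPM in dDAVP 1 to 3, and at 48.2, 27.4 and 46.3 CPM against 993, 1099 and 162 CPM for numbers 4 to 6. Among the libraries numbered 7 to 9 it was at 10.9, 37.3 and 252 CPM in control against 2764, 175 and 193 CPM with dDAVP, so that the library labelled control 9 lay above those labelled dDAVP 8 and dDAVP 9. Across genes, which are not independent replicates, the library labelled control 8 correlated with dDAVP 7 at r = 0.96 and with control 7 at r = 0.79, and control 7 correlated with dDAVP 8 at r = 0.85. dDAVP 6 also stood apart, with 10282 genes detected and 0.796% of its counts from ribosomal protein genes, against 4.73% or more in every other library. All 5 epithelial markers checked (Epcam, Cdh1, Krt8, Krt18 and Krt19) and 7 of 13 principal cell markers had a median FPKM of at least 1, while the endothelial markers Pecam1, Cdh5 and Kdr were at 0 in every library. Among 4 immune markers Cd68 had a median FPKM of at least 1, Cd3e was at 0, and their summed level was 1.42 to 18.9 FPKM in control and 0 to 53.5 FPKM in dDAVP libraries; the part of such transcripts in the results was not tested.

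The promoters of 3 members are shown here because they carry genes on which the results turn: the receptor, the main PKA regulatory subunit, and an RGS gene that came close to the threshold in libraries 1 to 3. The 250 bases before a transcript start were taken from RefSeq (GRCm38.p6), and 38 of the 46 members were in that table. Avpr2 and Rgs2 have 1 window each. Prkar1a has 6, for different starts, and the one printed was picked because it holds a full element. Both strands were searched for the full cyclic AMP response element TGACGTCA and for its shorter core TGACG, which the full element contains, and capitals mark the matches.
Avpr2, chrX:73891852-73892101, plus strand: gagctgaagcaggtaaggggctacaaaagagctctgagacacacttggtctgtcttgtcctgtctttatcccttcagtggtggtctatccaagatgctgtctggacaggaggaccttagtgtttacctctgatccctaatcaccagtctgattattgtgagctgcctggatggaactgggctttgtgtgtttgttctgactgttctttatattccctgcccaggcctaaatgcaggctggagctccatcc
Prkar1a, chr11:109650699-109650948, plus strand: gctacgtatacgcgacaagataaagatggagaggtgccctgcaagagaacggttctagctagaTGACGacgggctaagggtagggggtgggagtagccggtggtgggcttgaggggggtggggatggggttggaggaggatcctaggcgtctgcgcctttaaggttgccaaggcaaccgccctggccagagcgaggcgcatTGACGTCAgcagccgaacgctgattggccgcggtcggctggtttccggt
Rgs2, chr1:144004150-144004399, minus strand: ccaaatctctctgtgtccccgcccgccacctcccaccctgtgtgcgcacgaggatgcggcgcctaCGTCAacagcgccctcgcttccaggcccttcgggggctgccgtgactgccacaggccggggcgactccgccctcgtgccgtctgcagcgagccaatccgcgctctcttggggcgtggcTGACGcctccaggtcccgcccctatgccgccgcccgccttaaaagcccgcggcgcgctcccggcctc
The Avpr2 window held no match. The printed Prkar1a window, which lies inside the gene as GENCODE annotates it (chr11:109649405-109669656), held the full element starting 49 bases before its transcript start and a further core match at 187 bases. The other 5 Prkar1a windows held no full element, and 2 of them held the core. The Rgs2 window held core matches starting at 185 and 67 bases before the start. Of the 38 members, Prkar1a had the full element, 1 of 85 member windows (1.18%) against 1.55% of all 32851 windows. The core was found in 21 of the 85 member windows (24.7%) and in 17.8% of all windows. A match describes the letters and does not show that a factor binds there.

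Levels were compared between genes on the deposited FPKM scale, which divides by gene length, and a member was counted as expressed where its median FPKM over the 9 control libraries was at least 1. By that rule 17 of 46 members (37.0%) were expressed, against 29.0% of all rows. The number was 15, 16 and 15 within control 1 to 3, 4 to 6 and 7 to 9. The count was 19 with a threshold of 0.5 FPKM and 11 with a threshold of 2 FPKM.

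Among the listed members, most families were carried by 1 paralog, and each share below is of the listed members only. Gnas, the gene of Gs alpha, had the highest median of any member at 206 FPKM in control (116 to 941 FPKM). Avpr2, the V2 receptor, had a median of 18.2 FPKM (10.4 to 55.2 FPKM), while Avpr1a, the V1a receptor, had 0 counts in every library. No listed cyclase reached a median of 1 FPKM over the 9 control libraries. Adcy6, a known source of cyclic AMP in the collecting duct, had a median of 0.610 FPKM and a median share of 82.9% of the summed FPKM of the 6 listed cyclases (30.2 to 98.8%). Its share was lowest in control 7 to 9, at 30.2 to 58.4%, where Adcy9 and Adcy3 took the larger part of the rest of these 6. Adcy1 was not listed. Without division by length it was at 0.677, 1.46 and 0.479 CPM in control 7 to 9, below Adcy6, and at 10.1 CPM in dDAVP 7, above Adcy6 (6.77 CPM). Adcy3 shares exon sequence with the opposite strand of Cenpo, and the strand setting of the counting is not given in the sources used here, so its counts are uncertain. Adcy4, Adcy5 and Adcy7 had 3, 21 and 12 counts over all 18 libraries.

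For PKA, the catalytic alpha subunit Prkaca (median 21.1 FPKM) held 60.6 to 98.8% of the catalytic signal in control libraries, the rest being Prkacb (1.93 FPKM). Prkar1a, regulatory subunit RI alpha, had a median of 46.6 FPKM and held 84.0 to 95.3% of the regulatory signal, ahead of Prkar2b (2.11 FPKM) and Prkar2a (1.13 FPKM). Prkar1b, the RI beta subunit, had 67 counts over all libraries. Of the PKA inhibitors, Pkig had a median of 45.9 FPKM and held 95.3 to 100% of the inhibitor signal, Pkia had a median of 1.35 FPKM, and Pkib was represented by 1 count, in dDAVP 2. The levels of Prkar1a and Pkig overlapped in control libraries, as did those of Avpr2, Prkaca, Arrb2 and Grk6, so their order within these groups is not resolved beyond the spread between libraries.

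Of 14 phosphodiesterases, Pde7a, which is specific for cyclic AMP, was the only one with a median of at least 1 FPKM (3.48 FPKM, 0.568 to 6.53 FPKM). It held 98.1 to 99.0% of the phosphodiesterase signal in control 1 to 3, 71.2 to 78.1% in control 4 to 6 and 31.9 to 68.4% in control 7 to 9. The cyclic AMP-specific genes Pde4a, Pde4b, Pde4c and Pde4d had medians of 0.263, 0.0852, 0.0681 and 0.00607 FPKM. Pde3a, Pde7b, Pde8a and Pde10a had 0 counts in all 18 libraries, Pde1c and Pde3b had 1 count each and Pde1a had 6. Pde2a and Pde8b, with 403 and 78 counts, were at 0 in most libraries.

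Among the other members, the cyclic AMP-activated exchange factor Rapgef3 (Epac1) had a median of 1.09 FPKM and Rapgef4 (Epac2) one of 0.0498 FPKM. The most abundant of the listed anchors were Akap8, which binds PKA in the nucleus (10.7 FPKM), and Akap12, a scaffold of PKA and protein kinase C at the plasma membrane (9.97 FPKM). Akap8 held 63.0 to 82.0% of the anchor signal in control 1 to 3 but 14.7 to 18.6% in control 4 to 6, where Akap12 held 55.9 to 60.7%. Arrb2 (15.5 FPKM) was well above its paralog Arrb1 (0.288 FPKM), and Grk6 (13.5 FPKM) above Grk5 (0.0362 FPKM) and Grk4 (0 FPKM). Adrbk1, another receptor kinase, was not listed. Without division by length it was at 135.7, 74.22 and 83.26 CPM in control 4 to 6, above Grk6 (63.73, 26.25 and 42.4 CPM). It was also above Grk6 in control 7 to 9, at 45.97, 259.8 and 397.9 CPM against 39.76, 120.2 and 45.7 CPM. In control 1 to 3 it was below Grk6, at 15.28, 10.33 and 14.96 CPM against 47.18, 33.64 and 45.77 CPM. Rgs2, which speeds the shut-off of Gq proteins and also inhibits adenylyl cyclase, had a median of 0.0702 FPKM in control.

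The members differed between the sets of replicate numbers without any dDAVP. In control libraries, edgeR called 17 of the 28 members tested as differing between the 3 sets at an adjusted p under 0.05 (60.7%), with Benjamini-Hochberg adjustment over 11005 genes, of which 59.9% were called, so the members' share is near that of all genes. At an unadjusted p under 0.05 there were 18 members and 64.9% of all genes. The count was 10 or 11 of 30 without control 1, 2 or 3, when 5205 to 5364 of 11597 to 11612 genes were called. Gnas averaged 3000 ± 296 CPM (SD, n = 3) in control 1 to 3, 497 ± 89.5 CPM in control 4 to 6 and 305 ± 59.7 CPM in control 7 to 9 (edgeR adjusted p = 3.09e-05). Prkaca averaged 18.4 ± 1.31, 105 ± 13.9 and 26 ± 8.47 CPM in the same order (edgeR adjusted p = 7.25e-04). Akap12 was 93.9 ± 23.0, 158 ± 41.5 and 9.96 ± 1.99 CPM (edgeR adjusted p = 6.51e-05), and Akap13, another anchor, was 4.46 ± 0.206, 102 ± 53.5 and 8.38 ± 3.27 CPM (edgeR adjusted p = 2.26e-05). Each of the 3 genes other than Gnas was highest in libraries 4 to 6, and Gnas was highest in libraries 1 to 3. Akap8 (184 ± 58.1, 26.3 ± 3.83 and 34.6 ± 12.1 CPM) and Prkar1a (225 ± 12.1, 133 ± 25.0 and 90.7 ± 33.9 CPM) were also highest in libraries 1 to 3. Avpr2 did not pass the test (edgeR adjusted p = 0.742), nor did Grk6, Prkar2a or Akap1. Part of these calls depended on the scaling. With library totals in place of TMM, edgeR called 14 of the 28 members and 6550 of the 11005 genes. Grk6 and Pde4b were then called, and Prkar1a, Prkacb, Pde7a, Akap7 and Akap11 were not. In deposited FPKM, Prkar1a had medians of 52.1, 35.5 and 49.2 FPKM in control 1 to 3, 4 to 6 and 7 to 9. The share of ribosomal protein transcripts also moved with the sets, at 21.2 to 26.2%, 5.33 to 9.39% and 12.7 to 14.8% of the counts in control libraries, and its part in these differences was not tested.

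The comparison of dDAVP with control asks whether the transcripts of this machinery differ after the receptor has been activated for 24 h. No member passed the edgeR test in any of the 5 comparisons. Over all 18 libraries edgeR called 0 of 24 tested members at an adjusted p under 0.05, and 0 of 10121 genes (0%), while 1 member and 218 genes (2.15%) had an unadjusted p under 0.05. DESeq2 and weighted limma voom also called 0 members there, while they called 12 and 11 of all genes. With the set as a term in the fit it again called 0 of 24 members, against 8 of all genes (0.079%), with 1 member and 6.03% of all genes at an unadjusted p under 0.05. Of the 24 members, 18 had a positive and 6 a negative log2 fold change in the fit with the set term. Their median log2 fold change was 0.181, and that of all genes was 0.0245. Weighted limma voom called 2 members with the set term, Akap12 and Pde4b, among 118 of 10121 genes, and DESeq2 called 1, Akap12, among 31. The other 22 members were too low to be tested over 18 libraries, Rgs2 among them.

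Within the sets, edgeR called 0 of 21 tested members in libraries 1 to 3, where it called 41 of 8991 genes (0.456%), with 5 members and 10.5% of all genes at an unadjusted p under 0.05. It called 0 of 26 members and 0 of 10387 genes (0%) in libraries 4 to 6, with 1 member and 4.61% of all genes at an unadjusted p under 0.05. It called 0 of 29 members and 0 of 11367 genes (0%) in libraries 7 to 9, with 0 members and 5.19% of all genes at an unadjusted p under 0.05. DESeq2 called 1, 0 and 0 members in the 3 sets, among 123, 29 and 94 of all genes. Without control 7 and dDAVP 7, an alternative chosen after seeing the data, the calls in libraries 7 to 9 were 378 of 11635 genes and 0 of 31 members by edgeR. At an unadjusted p under 0.05 there were 6 members and 2645 of all genes in that fit. A test of whether the dDAVP effect differed between the sets called 0 of 24 members and 0 of 10121 genes (0%), with 1 member, Pde4b (unadjusted p = 0.0211, edgeR adjusted p = 0.666), and 6.63% of all genes at an unadjusted p under 0.05. DESeq2 also called 0 members for this difference, while it called 91 of the 10121 genes. Below, a log2 fold change is given for part of the members, and for none where it was smaller than its standard error.

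**Figure D1:**
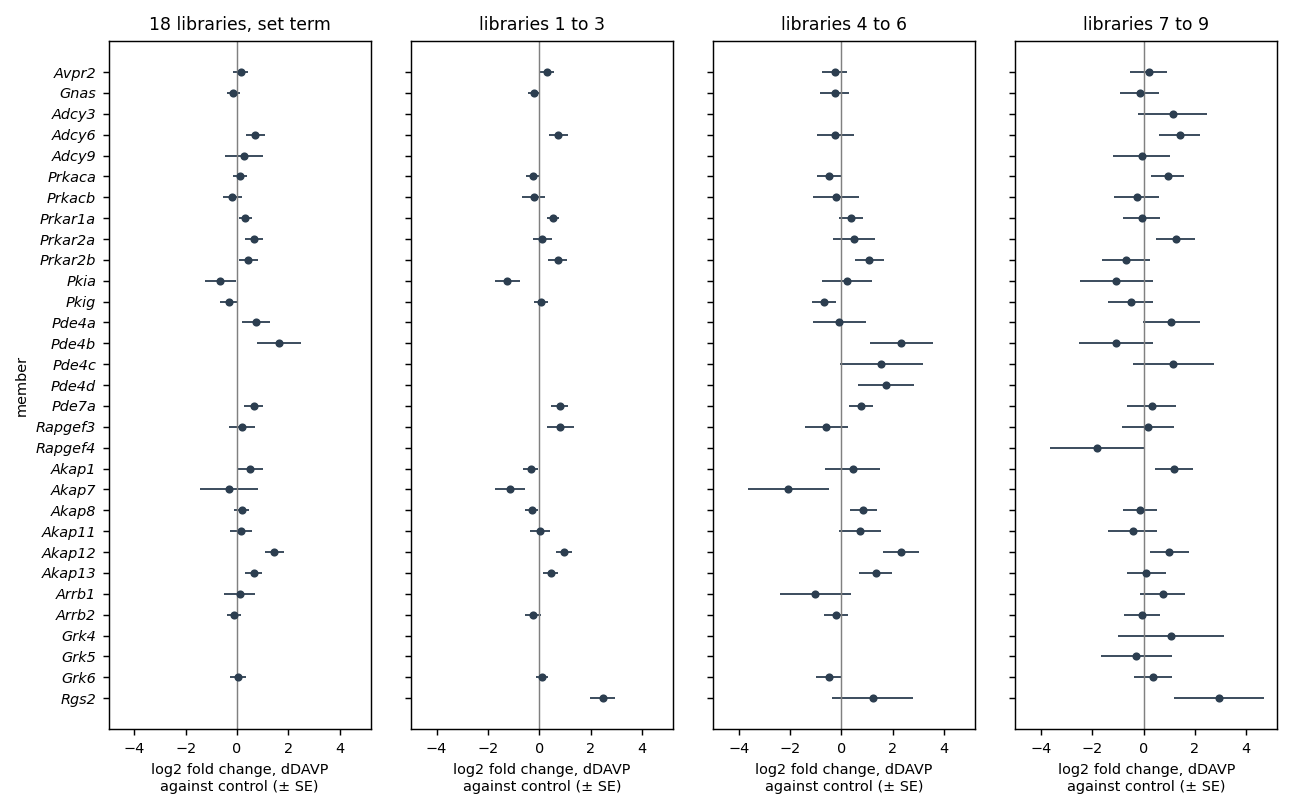
Log2 fold change of dDAVP against control by edgeR (points, with bars of ± 1 SE) for each member tested, in the fit of 18 libraries with the set term and in each set of 3 against 3 libraries; members below the count filter of a fit have no point there. Akap12 is to the right of 0 by more than its SE in all 4 panels (1.45, 0.97, 2.32 and 1.00), and Rgs2 is tested within the single sets.

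The receptor and the G protein did not pass the test. Avpr2 (chromosome X, 73892102 to 73895502, GRCm38) was at 20.2 to 64.8 CPM in control against 13.2 to 60.0 CPM with dDAVP, averaging 34.0 ± 13 and 38.2 ± 15.5 CPM (SD, n = 9 each). Lowest and highest were control 9 and control 8 in the first group and dDAVP 6 and dDAVP 7 in the second, and the groups overlapped across nearly their whole range. The mean difference was 0.119 on the log2(CPM + 1) scale, with a two-sided exact permutation p of 0.663 over 48620 regroupings and of 0.653 over 8000 regroupings within the sets. Gnas (chromosome 2, 174284320 to 174346744) ranged from 256 to 3298 CPM in control against 237 to 3228 CPM with dDAVP, with the values of the 2 groups overlapping within every set. In libraries 1 to 3 the log2 fold change of Avpr2 was 0.30 (SE 0.26, edgeR adjusted p = 0.680).

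The cyclase Adcy6 (chromosome 15, 98589973 to 98610076) was at 2.87, 1.16 and 1.62 CPM in control 1 to 3 and 2.38, 3.93 and 3.66 CPM in dDAVP 1 to 3, with 1 dDAVP library inside the control range. It was at 4.44, 8.03 and 7.58 CPM in control 4 to 6 against 6.24, 8.25 and 3.47 CPM in dDAVP 4 to 6. Control 7 to 9 were at 2.63, 2.88 and 3.19 CPM, and dDAVP 7 to 9 at 6.77, 6.62 and 10.4 CPM. The groups overlapped in libraries 1 to 6, and every dDAVP library lay above every control library in libraries 7 to 9. Its log2 fold change with the set term was 0.71 (SE 0.37, edgeR adjusted p = 0.844), 0.74 (SE 0.38) in libraries 1 to 3, and 1.40 (SE 0.79) in libraries 7 to 9, where it was 1.68 without control 7 and dDAVP 7.

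Of the PKA subunits, Prkar1a (chromosome 11, 109649405 to 109669656) was at 225, 213 and 237 CPM in control 1 to 3 and 307, 290 and 429 CPM in dDAVP 1 to 3. It was at 160, 111 and 128 CPM against 181, 143 and 200 CPM in libraries 4 to 6, and at 70.5, 130 and 71.7 CPM against 128, 62.7 and 71.2 CPM in libraries 7 to 9. The groups were apart in libraries 1 to 3 and overlapped in the other sets, and the log2 fold change in libraries 1 to 3 was 0.53 (SE 0.22, edgeR adjusted p = 0.437). Prkaca (chromosome 8, 83972993 to 83996443) was at 17.7, 19.9 and 17.6 CPM in control 1 to 3 against 17.8, 14.8 and 15.5 CPM with dDAVP, and at 120, 92.2 and 102 CPM against 100, 95.5 and 40.8 CPM in libraries 4 to 6. For Prkaca in libraries 7 to 9 the values were 22, 35.8 and 20.3 CPM in control against 58.9, 36.8 and 57.2 CPM with dDAVP, for a log2 fold change of 0.93 (SE 0.65, edgeR adjusted p = 0.943). The Prkaca groups overlapped in libraries 1 to 6, and in libraries 7 to 9 all 3 dDAVP libraries were above control, dDAVP 8 (36.8 CPM) lying close to control 8 (35.8 CPM).

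Prkar2b, the RII beta subunit, was at 7.21, 12.0 and 8.83 CPM in control 1 to 3 against 22.9, 12.2 and 12.1 CPM with dDAVP, and at 9.48, 18.2 and 11.3 CPM against 15.7, 36.2 and 35.2 CPM in libraries 4 to 6. The values in libraries 7 to 9 were 2.62, 2.02 and 8.31 CPM against 2.76, 3.25 and 2.29 CPM. It was higher with dDAVP in 8 of 9 numbers, equal numbers not being known pairs, with a log2 fold change of 0.72 (SE 0.37) in libraries 1 to 3, 0.24 without dDAVP 1, and of 1.08 (SE 0.56) in libraries 4 to 6. Prkar2a, the RII alpha subunit, had a log2 fold change of 0.66 (SE 0.35, edgeR adjusted p = 0.840) with the set term and 1.24 (SE 0.77) in libraries 7 to 9. There it was at 5.67, 4.79 and 2.80 CPM in control against 7.59, 13.8 and 10.7 CPM with dDAVP, the groups not overlapping, and the estimate was 1.89 without control 7 and dDAVP 7. Prkacb ranged from 1.91 to 24.5 CPM in control against 2.44 to 23.8 CPM with dDAVP, higher with dDAVP in 3 of 9 numbers.

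The balance of regulatory to catalytic subunit transcripts, the ratio of their summed FPKM, was described within each library. It was 6.25, 4.78 and 6.52 in control 1 to 3 and 7.59, 8.35 and 16.2 in dDAVP 1 to 3, every dDAVP library being above every control library. For libraries 4 to 6 the ratio was 0.962, 0.947 and 0.943 in control and 1.34, 1.31 and 3.71 with dDAVP, again apart, the value of 3.71 being that of dDAVP 6. In libraries 7 to 9 the order was the opposite, with 2.02, 2.53 and 2.33 in control and 1.55, 1.30 and 0.940 with dDAVP, and it is the same when control 7 and dDAVP 7 are left aside. The mean log2 differences, dDAVP minus control, were 0.799, 0.974 and -0.884 in the 3 sets. The ratio of Prkar1a to Prkaca alone gave 0.785, 0.904 and -1.05, but these 2 genes make up most of both sums, so it is no separate observation. The ratio of summed PKA inhibitor to catalytic FPKM overlapped between the groups in every set (0.294, -0.158 and -1.22). The ratios were not among the planned comparisons. No test across genes was made of them, and with 3 against 3 libraries an exact permutation test cannot go below p = 0.10.

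**Figure D2:**
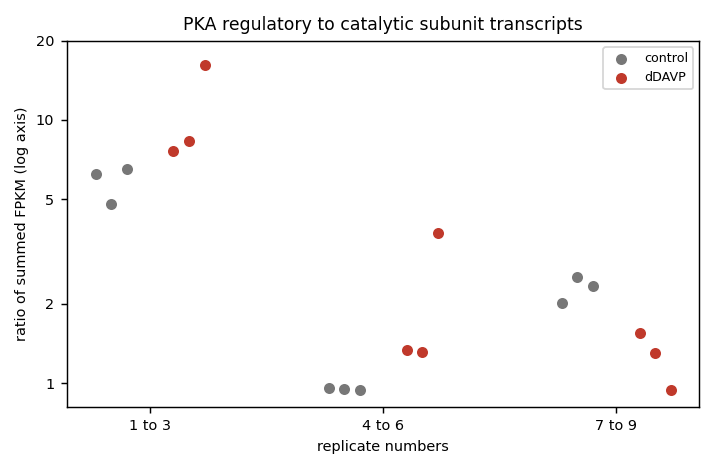
Ratio of the summed FPKM of the PKA regulatory subunits (Prkar1a, Prkar1b, Prkar2a, Prkar2b) to that of the catalytic subunits (Prkaca, Prkacb), on a log axis, 1 point per library. dDAVP libraries lie above control libraries in sets 1 to 3 and 4 to 6 and below them in set 7 to 9.

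Pkig, the most abundant PKA inhibitor, was at 37.5 to 263 CPM in control against 19.0 to 220 CPM with dDAVP, and its groups were apart in libraries 4 to 6, with 60.4, 46.7 and 42.8 CPM in control against 41.3, 37.9 and 19.0 CPM with dDAVP. The estimate there was -0.67 (SE 0.46, edgeR adjusted p = 0.999), and -0.44 without dDAVP 6. Pkia was at 4.58, 7.07 and 6.17 CPM in control 1 to 3 and 4.62, 1.45 and 1.35 CPM with dDAVP, dDAVP 1 lying inside the control range. Its log2 fold change was -1.25 (SE 0.49, unadjusted p = 0.0263, edgeR adjusted p = 0.417) in libraries 1 to 3. Without dDAVP 1 it passed the test at -2.21 (edgeR adjusted p = 0.00639), in a fit that called 774 of 9311 genes against 41 with dDAVP 1 kept. Some markers of other tubule cells were also high in dDAVP 2 and 3, a pattern chosen after its values were seen. Umod of the thick ascending limb was at 0 CPM in control 1 to 3 and 0.0458, 34.2 and 27.2 CPM in dDAVP 1 to 3, and Atp6v1b1 of intercalated cells at 0.733, 0.316 and 0.450 CPM against 0.412, 7.26 and 6.03 CPM. The intercalated markers Atp6v0a4 and Aqp6 were also higher in dDAVP 1 to 3. Against this, Foxi1 and Slc26a4 were at 0 CPM in both groups of libraries 1 to 3. Slc4a1 and Slc4a9 did not exceed 0.113 CPM there, and Slc4a9 was at 0 CPM in dDAVP 2 and 3. Over all libraries the 7 intercalated markers, 1 of them with a median of at least 1 FPKM, summed to 0.222 to 9.89 FPKM in control and 0.435 to 18.5 FPKM with dDAVP. The 2 thick ascending limb markers, both with lower medians, summed to 0 to 0.444 and 0 to 8.61 FPKM, and none of these 9 markers was at 0 in all libraries. Their part in the values of Pkia and Rapgef3 was not tested. In libraries 4 to 9 Pkia ranged from 0.105 to 7.96 CPM in control against 0.261 to 12.3 CPM with dDAVP.

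Among the phosphodiesterases, Pde7a was at 44.2, 43.0 and 50.1 CPM in control 1 to 3 and 120, 71.9 and 48.5 CPM with dDAVP, dDAVP 3 lying inside the control range. In libraries 4 to 6 it was at 23.1, 17.6 and 17.7 CPM in control against 24.6, 29.6 and 46.5 CPM with dDAVP, the groups not overlapping, and in libraries 7 to 9 at 16.9, 2.62 and 4.80 CPM against 2.04, 18.3 and 10.8 CPM. Its log2 fold change was 0.79 (SE 0.34, edgeR adjusted p = 0.453) in libraries 1 to 3, 0.28 without dDAVP 1, and 0.76 (SE 0.48) in libraries 4 to 6, 0.38 without dDAVP 6. Pde4b, the gene of a cyclic AMP-specific enzyme, had 0, 1 and 1 counts in control 1 to 3 and 19, 7 and 8 counts in dDAVP 1 to 3, a ratio of CPM of 17.4 (exact 95% counting interval 4.47 to 150). In libraries 4 to 6 it was at 0.995, 0.653 and 0.148 CPM in control against 4.79, 2.78 and 1.92 CPM with dDAVP, and in libraries 7 to 9 at 2.48, 0.219 and 0.479 CPM against 0.160, 0.338 and 1.12 CPM. The Pde4b groups were apart in the first 2 sets, although the gene was too low to be tested in libraries 1 to 3, and overlapped in the last, where control 7 was highest. Its log2 fold change was 2.34 (SE 1.22) in libraries 4 to 6. With the set term it was 1.64 (SE 0.85, edgeR adjusted p = 0.840), 2.42 without control 7 and dDAVP 7, and weighted limma voom called it at 2.99 (limma adjusted p = 0.00251). Intervals of this kind, and the floor of 3 counts, cover counting error only, because amplified reads without molecular identifiers can be copies of 1 molecule.

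Akap12 (chromosome 10, 4266380 to 4359470) had the lowest p of any member with the set term. It was at 90.5, 118 and 72.8 CPM in control 1 to 3 and 250, 173 and 148 CPM with dDAVP, and at 204, 125 and 145 CPM in control 4 to 6 and 377, 426 and 1558 CPM with dDAVP. In libraries 7 to 9, where its level was lowest, it was at 12.0, 9.84 and 8.03 CPM in control against 6.71, 27.3 and 27.2 CPM with dDAVP. Every dDAVP library was above every control library in the first 2 sets, and in the last dDAVP 7 lay below all 3 controls, so that Akap12 was higher with dDAVP in 8 of 9 numbers. The log2 fold change was 1.45 (SE 0.36, unadjusted p = 5.07e-04, edgeR adjusted p = 0.308) with the set term, 1.12 without dDAVP 6 and 1.71 without control 7 and dDAVP 7. Across the alternatives its adjusted p ranged from 0.000869 to 1.00, and it passed with DESeq2 (adjusted p = 0.0387) and weighted limma voom (adjusted p = 0.000869). Within the sets the estimates were 0.97 (SE 0.31, edgeR adjusted p = 0.313), 2.32 (SE 0.71, edgeR adjusted p = 0.999; 1.25 without dDAVP 6) and 1.00 (SE 0.76; 1.81 without control 7 and dDAVP 7). The difference between the sets had an unadjusted p of 0.218 by edgeR.

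Of the other anchors, Akap13 was at 4.28 to 4.68 CPM in control 1 to 3 and 5.64 to 6.71 CPM with dDAVP, the groups not overlapping, a log2 fold change of 0.45 (SE 0.29). Its values in libraries 4 to 6 were 158, 50.9 and 97.3 CPM in control against 146, 130 and 480 CPM with dDAVP, and the estimate of 1.34 (SE 0.65) became 0.37 without dDAVP 6. Akap7 was below control in each of dDAVP 1 to 3 (1.28, 0.791 and 0.676 CPM against 0.641, 0.484 and 0.113 CPM), with an estimate of -1.14 (SE 0.57, edgeR adjusted p = 0.512), and of -2.07 (SE 1.57) in libraries 4 to 6. Akap1, which anchors PKA at mitochondria, was at 6.45, 9.47 and 2.92 CPM in control 7 to 9 and 16.6, 9.60 and 17.7 CPM with dDAVP (log2 fold change 1.18, SE 0.75), and at 3.22 to 3.78 CPM against 2.20 to 3.72 CPM in libraries 1 to 3. Akap8 and Akap11 overlapped between the groups in every set, with estimates for Akap8 of -0.30 (SE 0.25) in libraries 1 to 3 and 0.85 (SE 0.52; 0.39 without dDAVP 6) in libraries 4 to 6. Counting all members, the groups did not overlap for 6 of the 21 tested in libraries 1 to 3, 5 higher with dDAVP (Prkar1a, Prkar2b, Akap12, Akap13 and Rgs2) and 1 lower (Akap7), against 7.47% of all genes higher and 6.93% lower. For libraries 4 to 6 there were 3 higher (Pde4b, Pde7a and Akap12) and 1 lower (Pkig) of 26, against 5.38% and 4.38% of all genes. For libraries 7 to 9 there were 5 higher (Adcy6, Prkaca, Prkar2a, Akap1 and Rgs2) and 0 lower of 29, against 4.56% and 4.43%. No member was apart in all 3 sets, against 0.119% of all genes higher and 0% lower. Rgs2 in libraries 1 to 3, at 4, 2 and 6 counts in control, passed the count filter through its dDAVP libraries, so the filter favoured its separation. The same limit holds for Rgs2 in libraries 7 to 9, with control 7 at 0 CPM. It also holds for Pde4b in libraries 4 to 6, with control 6 at 0.148 CPM. In the other direction it holds for Akap7 in libraries 1 to 3. Akap7 passed the filter there through its control libraries, with dDAVP 3 at 0.113 CPM.

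**Figure D3:**
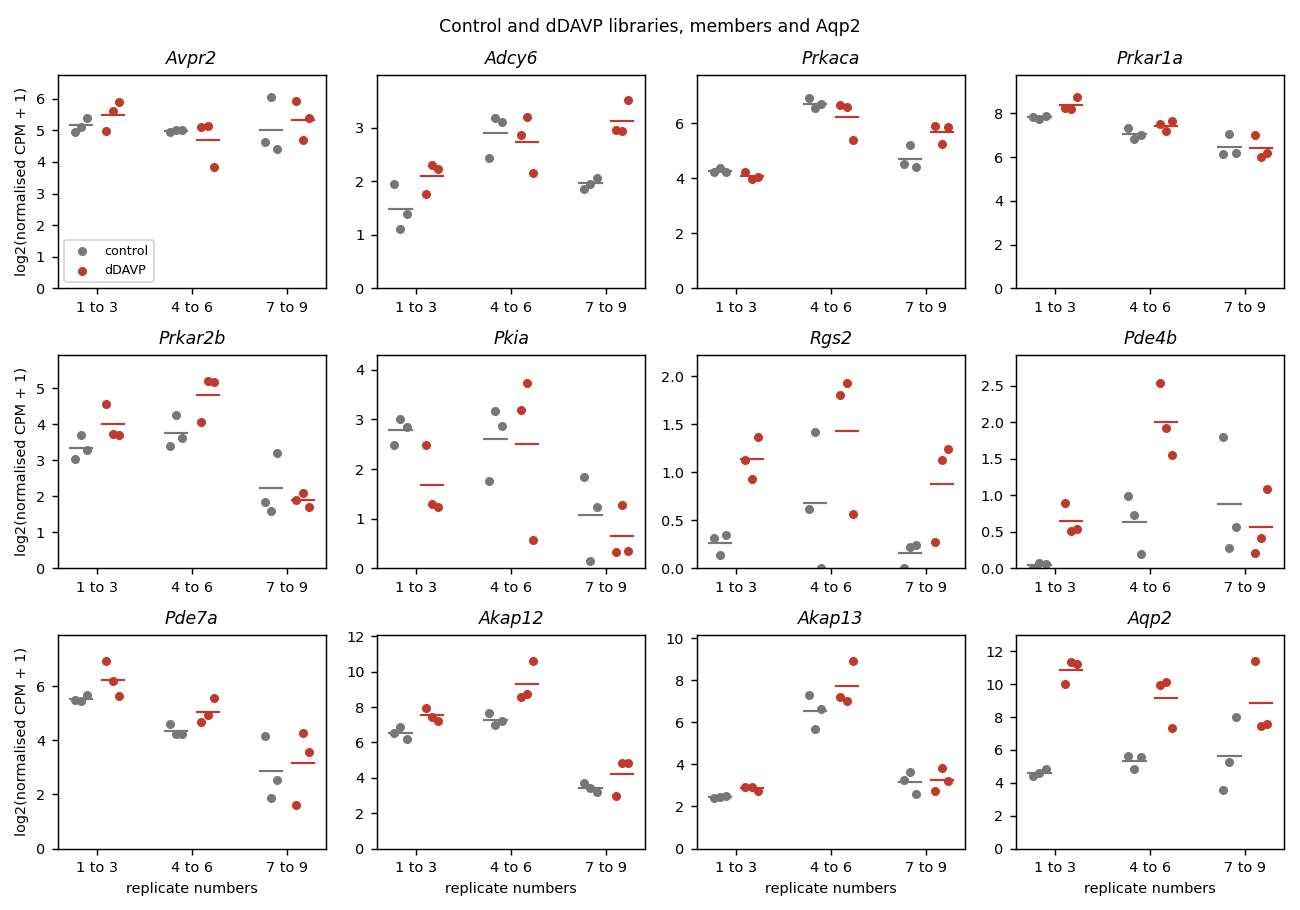
Values of 11 members and of Aqp2 in each library as log2(normalised CPM + 1), by set of replicate numbers, with control in grey and dDAVP in red; short lines are group means of 3 libraries and each panel has its own axis from 0. Akap12 lies above control in libraries 1 to 6 and Rgs2 in libraries 1 to 3 and 7 to 9, while Avpr2 overlaps in every set.

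Rgs2 (chromosome 1, 143999338 to 144004161) had the lowest p of the 21 members tested in libraries 1 to 3, where it passed the count filter through its dDAVP libraries. It had 4, 2 and 6 counts in control 1 to 3 and 26, 15 and 28 counts in dDAVP 1 to 3, or 0.244, 0.105 and 0.270 CPM against 1.19, 0.907 and 1.58 CPM, a ratio of 5.89 (exact 95% counting interval 3.17 to 12.0). The log2 fold change was 2.47 (SE 0.49, unadjusted p = 3.15e-04, edgeR adjusted p = 0.0556), which just missed the threshold. The edgeR adjusted p with a replicate block was 0.018 (log2 fold change 2.49), with DESeq2 it was 0.022, without the filter on low counts it was 0.0155 by edgeR, and over the alternatives it ranged from 0.0155 to 0.429. In libraries 4 to 6 Rgs2 was at 0.530, 1.67 and 0 CPM in control against 2.49, 2.80 and 0.479 CPM with dDAVP, and in libraries 7 to 9 at 0, 0.171 and 0.183 CPM against 0.210, 1.19 and 1.36 CPM. It was higher with dDAVP in 9 of 9 numbers, and the groups were apart in libraries 1 to 3 and 7 to 9 and overlapped in libraries 4 to 6. The ratios from summed counts were 2.83 (interval 2.14 to 3.76) for numbers 4 to 6, where the edgeR estimate was within its standard error (unadjusted p = 0.453), and 8.82 (interval 6.14 to 13.1) for numbers 7 to 9, where the edgeR log2 fold change was 2.93 (SE 1.74, adjusted p = 0.938) and 3.04 without control 7 and dDAVP 7. With dDAVP its median was 0.389 FPKM over the 9 libraries and 1.24 FPKM in dDAVP 7 to 9, but the deposited FPKM follow library totals without TMM. In normalised CPM the mean of dDAVP 7 to 9 was the lowest, at 0.92 CPM against 1.23 CPM in dDAVP 1 to 3 and 1.92 CPM in dDAVP 4 to 6.

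The exchange factor and the remaining genes of receptor shut-off gave no call with all libraries. Rapgef3 was at 0.733, 0.685 and 0.811 CPM in control 1 to 3 and 0.366, 1.94 and 2.03 CPM with dDAVP, dDAVP 2 and 3 being high, and passed the test there without dDAVP 1 (log2 fold change 1.28, edgeR adjusted p = 0.0477) but not with it (0.82, SE 0.52, edgeR adjusted p = 0.579). In libraries 7 to 9 it ranged from 2.44 to 37.9 CPM in control against 4.83 to 50.8 CPM with dDAVP. Arrb2, beta-arrestin 2, was at 5.54 to 51.6 CPM in control against 3.25 to 37.4 CPM with dDAVP, and Grk6, a receptor kinase, at 26.2 to 120 CPM and 14.4 to 136 CPM. Both overlapped between the groups within every set.

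Beyond the members, a list of 93 genes of the same families and their partners (other G protein subunits, cyclases, anchors, RGS proteins and other receptors) was described by counts, 92 of its genes being in the file. Over the 18 libraries 42 were tested and 0 were called by edgeR in any of the 5 comparisons of dDAVP with control. With the set term 21 had a positive and 21 a negative log2 fold change, with a median of -0.000384 against 0.0245 for all genes, and 2 had an unadjusted p under 0.05. Between the sets of control libraries, 26 of 45 tested genes of this list were called (57.8%), against 59.9% of all genes.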

How the data were processed

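Tools named in the submitters' processing notes are HTSeq, SAMtools and STAR 2.4.0.1, with build mm10; the strand setting is not given in the sources used here. Reads were single-end, and both a low-input kit and a single-cell protocol are described, per the labels' protocols. The deposited tables hold the authors' counts per gene symbol (24111 rows) and their FPKM values (24076 rows). Spreadsheet dates stood in place of 27 symbols in the count file, none of them a member.

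Counts of all genes were fitted with edgeR 4.0.16 (TMM, filterByExpr, quasi-likelihood tests, two-sided, Benjamini-Hochberg adjusted p under 0.05), using R 4.3.3, over 18 libraries, with the set of replicate numbers as a term, within each set, and for the interaction of set and treatment. The deposited FPKM were used for levels between genes. Alternatives used DESeq2 1.42.0, limma 3.58.1 voom with quality weights, other scalings and filters, a replicate block, and left-out libraries. Positions are those of GENCODE M21 (GRCm38). The members and lists were chosen with earlier results of these data known. Named were 11 fixed members, the most abundant of each family, and those with the lowest p in each fit.

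Deviations from the group means correlated across genes between equal replicate numbers at r of 0.93, 0.84, 0.86, 0.81, 0.69, 0.64, 0.40, 0.55 and 0.42 for numbers 1 to 9, so equal numbers were treated as paired in the block alternative. After removal of the set means r lay between -0.71 and 0.43, and the labels do not say what a number shares. Any 2 libraries of a group differed by a chi-square of at least 71.6 times its degrees of freedom, so none was a duplicate.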

Additional observations from a re-analysis of the deposited data

Results flagged for a closer look

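In 8 of 63 groups of 9 libraries looked at, 1 library stood apart from the rest by Dixon's criterion, which chance meets in about 1 of 20 groups. The values, in normalised CPM, were 1.67 for Rgs2 in control 5 (next highest 0.530), 7.69 for Adcy9 in control 9 (next 1.31), 4.45 and 13 for Pde4c in control 9 and dDAVP 7 (next 0.714 and 2.4), 5.81 for Adcy3 in dDAVP 9 (next 0.783), and 0.781 and 1.50 for Grk4 in control 8 and dDAVP 7 (next 0.207 and 0.135). Pkib, at 0 in every other library, was at 0.0605 CPM in dDAVP 2, which is 1 count. Control 9 and dDAVP 7, which account for 4 of the 8, are among the libraries of the set in which Aqp2 did not separate the groups.

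The ratio of PKA regulatory to catalytic transcripts lay higher with dDAVP in every library of sets 1 to 3 and 4 to 6 (mean log2 difference 0.799 and 0.974) and lower in every library of set 7 to 9 (-0.884). The ratio of Prkar1a to Prkaca did the same (0.785, 0.904 and -1.05), but these 2 genes make up most of both sums, so it is no separate observation. The ratio of PKA inhibitor to catalytic transcripts overlapped between the groups in every set. The difference between the sets in these ratios was not tested, and for Prkaca alone the edgeR test of a difference between the sets gave an unadjusted p of 0.0899 (adjusted p = 0.843).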

How the results depend on the processing

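Of 48 member estimates larger than their standard error, tried under 913 alternative settings in all, 912 kept their direction. The estimates were selected by size and the settings share most libraries, so a kept direction was likely from the start and is no test of the estimates. The exception to the kept direction was Pde4b over 18 libraries without the set term, at -0.015 without libraries 4 to 6 (1.31 with them). The count of members called with the set term, 0 in edgeR, was 1 with DESeq2 (Akap12) and 2 with weighted limma voom (Akap12 and Pde4b). In libraries 1 to 3 it was 2 without the count filter (Pde4b and Rgs2), 1 with DESeq2 and 1 with the replicate block (Rgs2 each time), and 0 to 3 with single libraries left out, 3 being without dDAVP 1 (Pkia, Rapgef3 and Rgs2). The replicate block changed no other call of a member. Over all genes these fits of libraries 1 to 3 called 207 without the filter, 123 with DESeq2, 101 with the block and 774 without dDAVP 1, against 41. The count of members differing between the control sets was 10 to 19 with single libraries left out, and 14 with scaling by library totals alone. With a threshold of 2 FPKM, 11 members counted as expressed, and 14 to 16 did with single control libraries left out.

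Scaling by library totals alone moved the median log2 fold change of all genes from 0.0545 to 0.237 over 18 libraries, from -0.0333 to -0.378 in libraries 4 to 6 and from -0.0265 to 0.543 in libraries 7 to 9, so single-set estimates are relative to TMM. The count filter left 22 of 46 members untested over 18 libraries, 5 of them at 0 counts throughout.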
